A study of Saccharomyces cerevisiae with 30 samples.

Results

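Untreated mature 40S subunits of budding yeast (Saccharomyces cerevisiae) were compared with untreated WT pre-40S particles, their precursors, over the 18S rRNA. The 8 libraries of 30 in the series were those given without dimethyl sulfate (DMS): mature 40S replicates 1 to 3 and WT pre-40S replicates 1 to 5, each replicate a biological one per the design text. Both groups came from cells in rich medium (YPD) at mid-log phase. The WT pre-40S particles were isolated by a TAP tag on Rio2, a kinase bound to late pre-40S, and how the mature subunits were isolated is not given in the sources used here. The assay, DMS-MaPseq, reads modified bases as mutations made by reverse transcriptase, so an untreated library shows the errors and losses of reads that arise without DMS. All 4 bases were analysed, and 1678 of the 1800 positions of 18S had an effective depth of at least 1000 reads in all 8 libraries (443 A, 338 C, 427 G and 470 U). Positions are counted from the 5′ end of 18S.

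Some bases of rRNA carry natural modifications that a reverse transcriptase misreads or cannot pass. In yeast 18S the best known such base is U1191, in a hairpin loop of the head near the tRNA binding site: it is turned into pseudouridine, methylated by Nep1 and given an aminocarboxypropyl group by Tsr3 on late cytoplasmic precursors. Other base changes are the acetylated C1280 and C1773 (made by Kre33), the methylated G1575 (Bud23) and the dimethylated A1781 and A1782 (Dim1). Ribose methylation and plain pseudouridine, the 2 common changes of rRNA, leave the base readable in most conditions.

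The untreated profiles of the series fell into 4 sets of libraries that crossed the particles, and this limited every comparison. Of the 8 libraries, set 1 held mature replicates 2 and 3 with WT replicates 4 and 5. WT replicates 2 and 3 were in set 2, while WT replicate 1 and mature replicate 1 were each alone among the 8 in a set. Pearson's r of log2 rates over positions was 0.847 to 0.928 within sets and 0.278 to 0.627 between them. Mature replicates 2 and 3 were the closest pair of 1 particle, with a mean chi-square of 1.77 per position, where sampling noise alone gives 1. The labels do not say what the sets are. Set 1 alone held both particles, and outside it set and particle cannot be told apart, so each test was run on the 8 libraries and again within set 1 (2 against 2). The mean untreated rate was 0.350% to 0.776% in mature and 0.462% to 0.889% in WT libraries, and the median effective depth was 6500 to 7978 reads in mature and 3976 to 13270 reads in WT libraries. Mature replicate 1 had the lowest mean rate of the 8 libraries, though not the lowest rate at every position. The fits divide rates by a library scale, which was 0.576, 1.12 and 1.14 in mature replicates 1 to 3 and 0.801 to 1.25 in WT libraries. For the excluded read share described below it was 0.480, 0.999 and 0.999 in mature and 1.00 to 1.43 in WT libraries. Rates are given as measured unless called scaled, which means divided by the scale of the 8 libraries. Read depth over the internal transcribed spacer, which mature subunits lack, was 0.00262 to 0.0128 of that over 18S in mature and 0.418 to 0.915 in WT libraries.

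The stretches that carry the differences are printed here so that the called positions can be seen in their context. Capitals mark positions whose untreated mutation rate passed the threshold in set 1 (adjusted p under 0.05), in RNA letters from the deposited profiles, 5′ to 3′.
18S 66 to 86: uaagcaaUUUAUAcagugaaa
18S 186 to 196: cgaccCuUugg
18S 271 to 285: auggccuUgugcugg
18S 897 to 914: cagaggugAAAuucuugg
18S 943 to 959: cauuugccAAggacguu
18S U1168 to U1191: uggAgcCuGCGGCUUAAuuUGACU
18S 1192 to 1231: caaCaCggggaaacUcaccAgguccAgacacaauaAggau
The first 5 stretches lie over 40 nt from U1191, and the last pair ends and begins at it. Rates were raised in mature 40S at the capitals of 66 to 86, 186 to 196, 271 to 285, 897 to 914 and U1168 to U1191, and lowered at those of 943 to 959 and 1192 to 1231.

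With all 8 libraries, U1191 was the only position of 1658 tested whose untreated mutation rate differed (0.0603% of positions; edgeR's quasi-likelihood test, Benjamini-Hochberg threshold 0.05; 127 positions had an unadjusted p under 0.05). Its rate was 76.8%, 81.8% and 83.3% in mature replicates 1 to 3, against 2.05%, 2.45%, 2.92%, 2.65% and 4.26% in WT replicates 1 to 5, at 1284 to 11179 reads. Every mature library was far above every WT library, and the log2 change was 5.11 (SE 0.47; adjusted p = 0.00107). A fit by DESeq2 called 7 positions and a limma fit with the set as a random block called 19, each with U1191 among them. A depth minimum of 2000 reads removed U1191 itself and left 0 calls.

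Within set 1 the rates of 54 positions among 1712 differed (3.15%): 30 rose (1.75%) and 24 fell (1.40%) in mature 40S. Without a library scale 27 rose and 49 fell. The count rests on these 4 libraries: it was 124 and 69 when WT replicate 5 or 4 was left out, and 34 and 13 when mature replicate 2 or 3 was, where the lone sample of a group is assumed to vary like the others. Of the 54 calls 22 lay within 40 nt of U1191, among 80 tested positions, and 32 lay farther away, among 1632 tested (1.96%). By region the 5′ domain held 21 calls (4.81% of its tested positions), the head 25 (5.39%), the shoulder, central domain and platform 7 (1.05%) and the 3′ minor domain 1 (0.685%). Calls were at 22 A, 11 C, 7 G and 14 U, which is 4.91%, 3.30%, 1.59% and 2.85% of the tested positions of each base. Runs of 3 or more of the same base held 20.4% of the calls and 18.6% of the tested positions. Of the 54 calls 46 had 1000 reads in all 8 libraries. These had the same sign in the fit of 8, where 32 of them had an unadjusted p under 0.05. Of all 1658 positions in that fit 127 did. The fit shares the 4 libraries of set 1, so an excess over that share is partly built in.

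**Figure D1:**
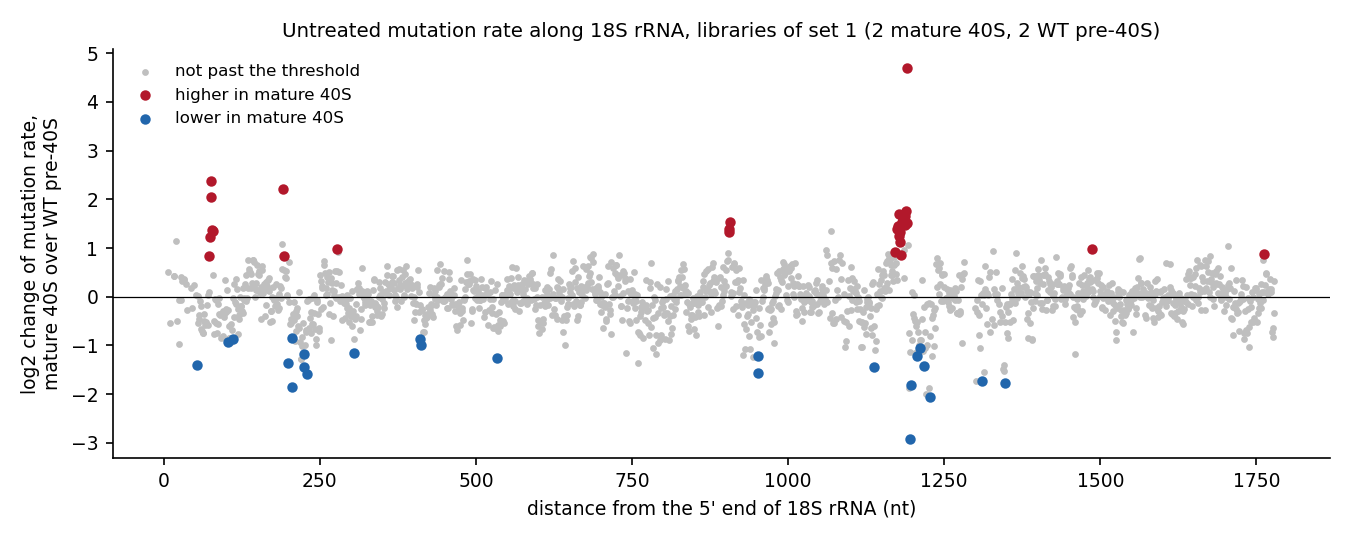
Log2 change of the untreated mutation rate, mature 40S over WT pre-40S, at each of 1712 tested positions (vertical axis) against distance from the 5′ end of 18S in nt (horizontal axis), for the 4 libraries of set 1. Red points are the 30 positions higher and blue points the 24 lower in mature 40S; the densest group of red points ends at U1191, with blue points just 3′ of it, and a separate red group lies at U73 to A78.

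The flanks of U1191 differed in opposite ways on its 2 sides. On the 5′ side, which reverse transcriptase copies after U1191, 15 of the 20 nearest positions rose in set 1 and 0 fell, with a median log2 change of 1.35 over the 20. On the 3′ side, copied before U1191, 4 of the 20 nearest positions fell and 0 rose, with a median log2 change of -0.81. At 21 to 40 nt from U1191 the medians were 0.49 on the 5′ side and -0.88 on the 3′ side, and over all tested positions the median was -0.00.

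The 15 called positions from A1171 to C1190 had mean rates of 0.800%, 1.95% and 2.29% in mature replicates 1 to 3, against 0.742%, 0.801%, 0.834%, 0.922% and 0.792% in WT replicates 1 to 5. As measured, mature replicates 2 and 3 were above every WT library and mature replicate 1 lay within the WT range. Scaled, all 3 were above every WT library, at 1.39%, 1.75% and 2.01% in mature against 0.592% to 1.00% in WT libraries. Position by position, 7 of the 16 raised calls within 40 nt, U1191 included, were without overlap when scaled. Among tested positions with a positive change there, 37.8% were. G1178 and U1182 overlapped, as measured and scaled. At U1182 mature replicate 1 was below every WT library, at 0.173% against 0.441% to 0.817% (scaled, 0.301% against 0.499% to 0.681%). The 20 positions just 5′ of U1191 all had a positive change in the fit of 8 libraries too (median log2 change 1.08), with 0 called. U1187, a pseudouridine, had 1.31%, 2.95% and 3.25% in mature against 0.621%, 0.820%, 1.17%, 1.07% and 1.03% in WT libraries, with no overlap of the groups (set 1 log2 change 1.67, SE 0.30; adjusted p = 6.36e-06). A1189 had 0.929%, 3.79% and 3.61% in mature against 0.574%, 1.42%, 2.02%, 1.12% and 1.25% in WT libraries (log2 change 1.75, SE 0.30; adjusted p = 2.05e-06). Here mature replicate 1 was below 4 of the WT libraries as measured and below 2 of them scaled. G1178 had a log2 change of 1.69 (adjusted p = 2.05e-06) and A1183 of 1.53 (adjusted p = 1.41e-05), and these and U1187 and A1189 kept their calls in every alternative that tested them. A1184, with a change of 1.60, and U1182, with 1.46, lost theirs without mature replicate 3 (adjusted p = 0.562 and 0.600), and C1190, with 1.51, lost its call without mature replicate 2 (0.602).

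The 6 called positions from C1195 to A1227 had mean rates of 0.155%, 0.344% and 0.348% in mature replicates 1 to 3, against 1.16%, 0.632%, 0.913%, 1.04% and 1.01% in WT replicates 1 to 5. Every mature library was below every WT library over this stretch, as measured and scaled, so here the libraries outside set 1 moved as set 1 did. C1197 had 0.153%, 0.262% and 0.285% in mature against 1.04%, 1.01%, 1.86%, 1.19% and 0.873% in WT libraries, again without overlap (set 1 log2 change -1.81, SE 0.41; adjusted p = 0.00101). The change was -2.06 at A1227, -1.43 at A1217 and -1.22 at U1206, with adjusted p of 0.00101, 0.00216 and 0.00418. At U1206 the groups overlapped, as measured and scaled. Its rate was 0.124%, 0.515% and 0.655% in mature against 0.342%, 0.469%, 0.570%, 1.76% and 1.20% in WT libraries. Without mature replicate 3 the adjusted p was 0.199 at C1197, 0.0697 at A1227, 0.454 at A1217 and 0.134 at U1206. Without mature replicate 2 it was 0.0606 at C1197 and 0.189 at U1206, and without WT replicate 4 it was 0.110 at U1206.

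The excluded read share is the part of the read depth that the effective depth leaves out. In set 1 it moved with the rates around U1191. The sources used here do not define it; programs of this kind usually leave out bases of low quality and bases next to another mutation or a gap. Within set 1 it differed at 79 among 1779 positions (4.44%), of which 32 rose (1.80%) and 47 fell (2.64%), and 43 of the 79 lay within 40 nt of U1191. Positions over 40 nt away made up 95.4% of those tested and 45.6% of the calls. Without a library scale 15 rose and 54 fell. It was higher in mature 40S at 10 called positions from 1183 to 1192, at 21.9% to 40.1% in mature against 17.9% to 32.9% in WT libraries of set 1. It was lower at 30 called positions from C1195 to A1230, at 4.40% to 24.6% in mature against 6.07% to 30.5% in WT libraries of set 1. The largest decrease was at A1203, with 14.5% and 11.8% in mature replicates 2 and 3 against 23% and 22.4% in WT replicates 4 and 5 (log2 change -0.75, SE 0.10; adjusted p = 0.00196). C1205 (-0.75), C1210 (-0.69), A1204 (-0.69) and A1202 (-0.68) followed. The count of calls was 218 and 134 when WT replicate 5 or 4 was left out, and 21 and 0 when mature replicate 2 or 3 was. With all 8 libraries 0 of 1729 positions passed by edgeR (0% called; 72 had an unadjusted p under 0.05), at library-wide excluded shares of 5.81% to 12.1% in mature and 12.2% to 17.2% in WT libraries.

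The loss of read depth at U1191 was seen in all 3 mature libraries, whatever their set. Over the 10 positions just 5′ of U1191 the read depth relative to the library's own 18S median was 0.232, 0.348 and 0.255 in mature replicates 1 to 3, against 1.28, 0.855, 0.983, 1.04 and 0.798 in WT replicates 1 to 5. Over the 10 positions just 3′ of it the ratio was 0.432, 0.396 and 0.395 in mature, against 1.49, 0.849, 0.895, 1.01 and 0.771 in WT libraries. Depth in mature 40S was thus low on both sides, and lower on the 5′ side. Between 31 and 40 nt 5′ of U1191 it was 0.616 to 0.784 in mature and 0.973 to 1.33 in WT libraries, and between 51 and 60 nt 5′ the groups overlapped, at 0.808 to 0.954 in mature and 0.704 to 1.13 in WT libraries.

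**Figure D2:**
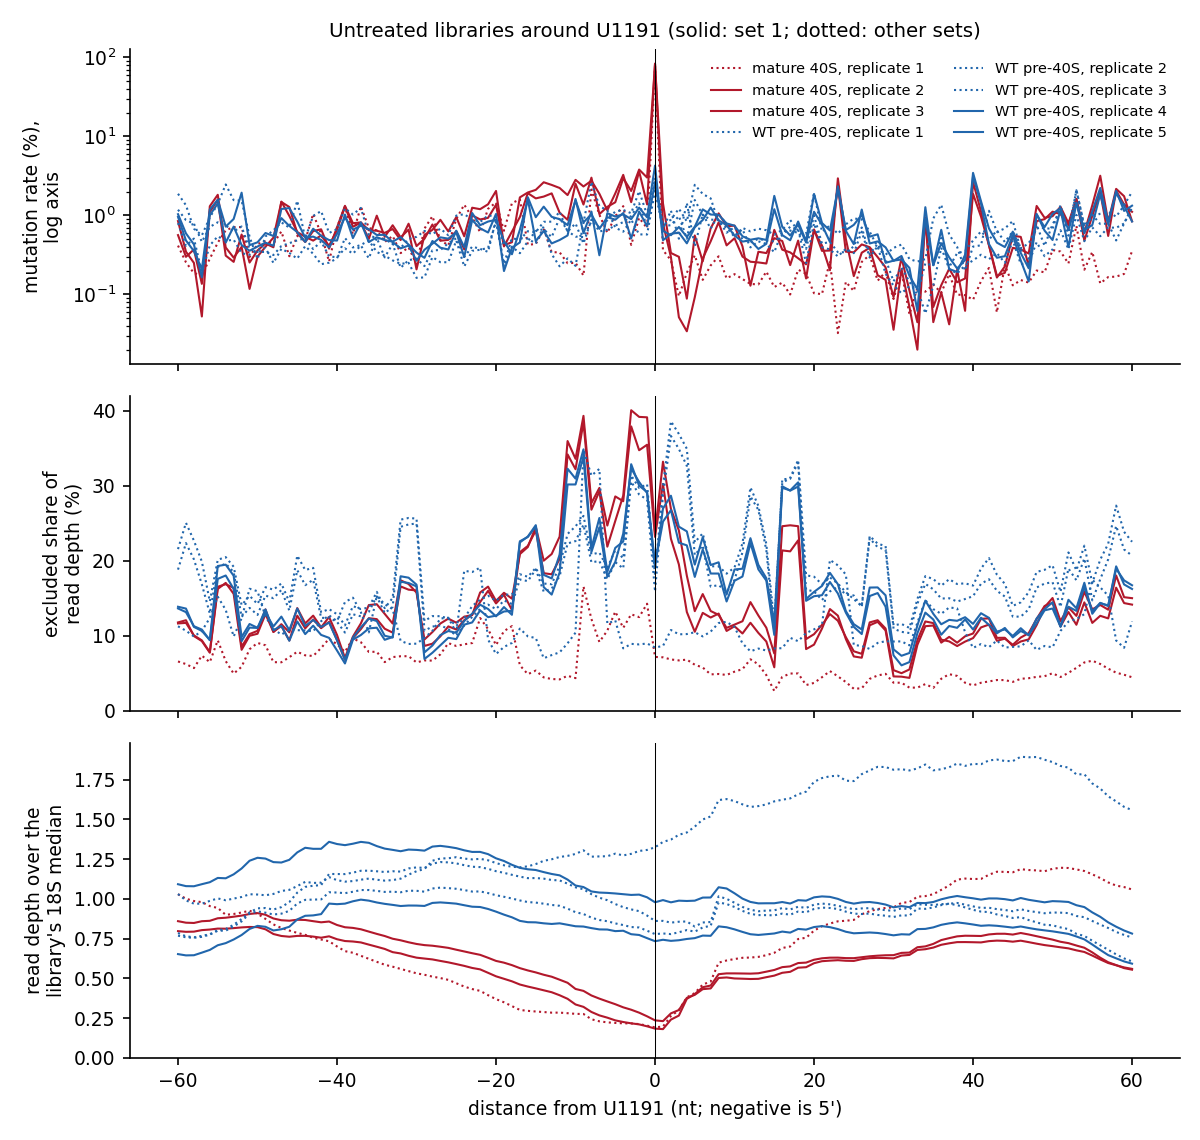
Untreated mutation rate (top, percent, log axis, with rates under 0.02% drawn at 0.02%), excluded share of the read depth (middle, percent) and read depth over the library's 18S median (bottom) against distance from U1191 in nt, 1 line per library, red for mature 40S and blue for WT pre-40S, solid for set 1 and dotted for the others. The 3 mature lines dip to about U1191 in the bottom panel, with means of 0.232 to 0.348 over the 10 nt on its 5′ side, while the 5 WT lines stay between 0.798 and 1.28 there.

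A depth step was the log2 of the mean read depth of the 5 positions 3′ of a position over that of the 5 positions 5′ of it, so a positive step is a loss of reads on the way 5′. With 8 libraries 51 of 1679 steps differed (3.04%; limma), 15 higher and 36 lower in mature 40S, and within set 1 13 of 1769 did (0.735%), 4 higher and 9 lower. The 15 higher steps formed a single site from 1192 to 1208 that peaked at A1194. There the step was 1.13, 0.73 and 1.12 in mature replicates 1 to 3, against 0.17, 0.09, 0.00, 0.02 and 0.05 in WT replicates 1 to 5 (log2 change 0.92, SE 0.09; adjusted p = 0.00439). This is a mean depth ratio of 2.0 in mature and 1.05 in WT libraries. A broad site of 30 lower steps from 1141 to 1186 followed on the 5′ side, where depth in mature 40S came back. It peaked at A1183, with steps of -0.34, -0.47 and -0.61 in mature against 0.00, -0.15, -0.17, -0.11 and -0.07 in WT libraries (log2 change -0.38, SE 0.06; adjusted p = 0.0405). The call at A1194 held without each library in turn. That at A1183 ended without WT replicate 2, 3, 4 or 5 or mature replicate 2 or 3, with adjusted p from 0.0764 to 0.114, and the count of steps was 3 to 13 without WT replicate 2, 3, 4 or 5 or any mature replicate. Within set 1 the peaks were A1196 (log2 change 0.78, SE 0.09; adjusted p = 0.0406) and again A1183 (-0.45, adjusted p = 0.0315). A1196 was not called without WT replicate 4 or 5 or mature replicate 3 (adjusted p = 0.508, 0.385 and 0.120), and A1183 not without mature replicate 2 or 3 (0.110 and 0.282). The count in set 1 was 267 and 304 without WT replicate 4 or 5, and 5 and 0 without mature replicate 2 or 3.

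Away from U1191, 14 positions rose in set 1, and 6 of them were consecutive, U73 to A78 in an AU-rich stretch of the 5′ domain. Their mean rate was 0.532%, 1.72% and 1.99% in mature replicates 1 to 3, against 0.571%, 0.531%, 0.495%, 0.717% and 0.727% in WT replicates 1 to 5. As measured, mature replicates 2 and 3 were above every WT library by more than 2 fold while mature replicate 1 was within the WT range. Scaled, all 3 were above, at 0.925%, 1.54% and 1.75% in mature against 0.455% to 0.663% in WT libraries. U75 rose most after U1191 itself, with 0.685%, 3.20% and 3.40% in mature, against 0.809%, 0.700%, 0.615%, 0.594% and 0.768% in WT libraries. Its 95% Wilson intervals were 2.83% to 3.63% in mature replicate 2 (236 of 7364 reads) and 0.613% to 0.961% in WT replicate 5 (75 of 9768 reads), for counting error only. The set 1 log2 change of U75 was 2.38 (SE 0.25; adjusted p = 1.04e-18), and it was past the threshold in every alternative within set 1, with adjusted p of at most 0.000380. In the fit of 8 libraries the change was 1.84, with an unadjusted p of 0.000406 and an adjusted p of 0.213. A76 had 0.274%, 0.859% and 0.859% in mature, against 0.900%, 0.397%, 0.383%, 0.266% and 0.181% in WT libraries (set 1 log2 change 2.05, SE 0.34; adjusted p = 1.21e-06). Its rate in mature replicates 2 and 3 was close to that of WT replicate 1, so the groups overlapped outside set 1, also when scaled. The other pre-40S untreated libraries of set 1, from the S15_YRR and Rio2_Δloop strains, named for changes in ribosomal protein S15 and in Rio2, had 0.529% to 1.71% at U75 (median 1.26%) and 0.63% to 1.35% over U73 to A78.

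The same stretch stood out in the excluded share and in read depth. The excluded share was higher in set 1 at 7 called positions from 70 to 76, at 12.9% to 22.4% in mature and 8.73% to 16.3% in WT libraries of set 1. At U74 it was 19.3% and 20.5% in mature replicates 2 and 3, against 13.3% and 11.9% in WT replicates 4 and 5 (log2 change 0.71, SE 0.07; adjusted p = 0.000292), and the change was 0.70 at A72 and 0.66 at U73. In the sets outside set 1, U74 had 8.70% in mature replicate 1 and 17.2% to 17.9% in WT replicates 1 to 3. Scaled, it was 18.1%, 19.3% and 20.5% in mature replicates 1 to 3 against 11.9% to 16.8% in WT libraries, without overlap. The depth step at U74 was -0.42 and -0.45 in mature replicates 2 and 3, against -0.17 and -0.14 in WT replicates 4 and 5 (log2 change -0.28, SE 0.03; adjusted p = 0.0275). It was -0.27 in mature replicate 1 and -0.00, -0.38 and -0.28 in WT replicates 1 to 3, so over all 8 libraries the groups overlapped, and the call ended without mature replicate 2 or 3 (adjusted p = 0.386 and 0.479).

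The next pair that rose, C191 and U193 in the 5′ domain, was apart in all 8 libraries, as measured and scaled. C191 had 0.998%, 0.911% and 1.14% in mature replicates 1 to 3, against 0.716%, 0.369%, 0.589%, 0.337% and 0.157% in WT replicates 1 to 5 (set 1 log2 change 2.22, SE 0.34; adjusted p = 7.20e-08). U193 had 4.07%, 2.71% and 3.54% in mature, against 0.649%, 0.321%, 0.653%, 1.49% and 2.25% in WT libraries (set 1 log2 change 0.84, SE 0.23; adjusted p = 0.0103). Both were left out of the fit of 8 libraries because WT replicate 1 had fewer than 1000 reads there (977 at C191, where its interval was 0.347% to 1.47%). Of the 14 positions that rose more than 40 nt from U1191 these 2 were without overlap in the 8 libraries, against 0.627% of the tested positions with a positive change there. Scaled, 7 of the 14 were without overlap (U73, U75, U77, C191, U193, U278 and A905), against 5.51%. The calls were picked on set 1, part of these 8 libraries, and 53 of all 54 calls were already apart there. An excess over the share of tested positions is thus partly built in. The excluded share was raised at the adjoining C190, with 16.2% and 18.6% in mature replicates 2 and 3 against 13.6% and 11.3% in WT replicates 4 and 5 (log2 change 0.54, adjusted p = 0.00552). Outside set 1 it was 22.4% in mature replicate 1 and 10.4%, 17.7% and 20.5% in WT replicates 1 to 3. As measured the groups thus overlapped at C190. Scaled they did not, with a lowest mature value of 16.2% against 10.2% to 14.3% in WT libraries. U193 is named after its values were seen, as are A905, U278, G1486 and A1763 below.

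At A905 to A907, in the region of the shoulder, central domain and platform, the mean rate was 0.316%, 1.13% and 1.37% in mature replicates 1 to 3, against 0.161%, 0.302%, 0.351%, 0.481% and 0.560% in WT replicates 1 to 5. Mature replicates 2 and 3 were at least 2 fold above the highest WT library, and mature replicate 1 was within the WT range. Scaled, all 3 were above, at 0.548%, 1.01% and 1.20% in mature against 0.129% to 0.470% in WT libraries. A907 had a set 1 log2 change of 1.54 (SE 0.47; adjusted p = 0.0401), which was lost without WT replicate 5 (0.0760), mature replicate 2 (0.0517) or mature replicate 3 (0.964) and without a library scale (0.0610). A905 had 0.645%, 1.99% and 2.25% in mature against 0.216%, 0.371%, 0.395%, 0.802% and 1.02% in WT libraries, with a change of 1.34 (adjusted p = 0.000389). The depth step beside it, at G904, was -0.23, -0.21 and -0.24 in mature, against -0.01, -0.06, -0.06, -0.07 and -0.06 in WT libraries, so that the groups did not overlap (log2 change -0.17, SE 0.02; adjusted p = 0.0276 with 8 libraries). The excluded share at G904 was 14.8% and 15.8% in mature replicates 2 and 3, against 11% and 10.7% in WT replicates 4 and 5 (log2 change 0.55, adjusted p = 0.00187). Outside set 1 it was 14.1% in mature replicate 1 and 20.99%, 12.2% and 12.4% in WT replicates 1 to 3. The groups thus overlapped at G904, as measured and scaled, through WT replicate 1. Scaled, WT replicate 1 had 20.5%, against 29.3%, 14.8% and 15.8% in mature replicates 1 to 3. The other WT libraries had 8.68% to 10.6%.

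A step of like size stood at C276, beside U278. It was -0.28, -0.25 and -0.20 in mature replicates 1 to 3, against 0.03, -0.03, -0.04, -0.08 and -0.11 in WT replicates 1 to 5, again without overlap (log2 change -0.20, SE 0.04; adjusted p = 0.0405). U278 had 1.20%, 2.49% and 2.95% in mature against 0.255%, 0.321%, 0.313%, 1.52% and 1.47% in WT libraries (set 1 log2 change 0.97, SE 0.22; adjusted p = 0.00106). As measured, mature replicate 1 was above WT replicates 1 to 3 but not above WT replicates 4 and 5. Scaled, all 3 mature libraries were above all WT libraries, at 2.09% to 2.59% in mature and 0.203% to 1.27% in WT libraries. Both steps, at C276 and G904, are modest: mean depth ratios were 0.845 and 0.854 in mature against 0.969 and 0.964 in WT libraries. Neither passed the threshold without mature replicate 1, 2 or 3 or without WT replicate 2, 3, 4 or 5 (adjusted p from 0.0617 to 0.114), nor with a window of 10 positions. Near both, and near U74, depth in mature 40S was higher just 5′ of the position with raised errors than just 3′ of it. The mean WT steps had the same sign and were smaller. At C276, G904 and U74 they were -0.05, -0.05 and -0.20, against -0.24, -0.23 and -0.38 in mature libraries. The last 2 positions that rose, G1486 and A1763, had set 1 log2 changes of 0.98 and 0.87 (adjusted p = 0.0101 and 0.0138). At both the groups overlapped, as measured and scaled. G1486 had 0.369%, 1.09% and 1.41% in mature against 0.902%, 0.486%, 0.632%, 0.645% and 0.734% in WT libraries. A1763 had 1.71%, 2.96% and 3.55% in mature against 7.61%, 2.03%, 2.67%, 1.41% and 2.40% in WT libraries.

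**Figure D3:**
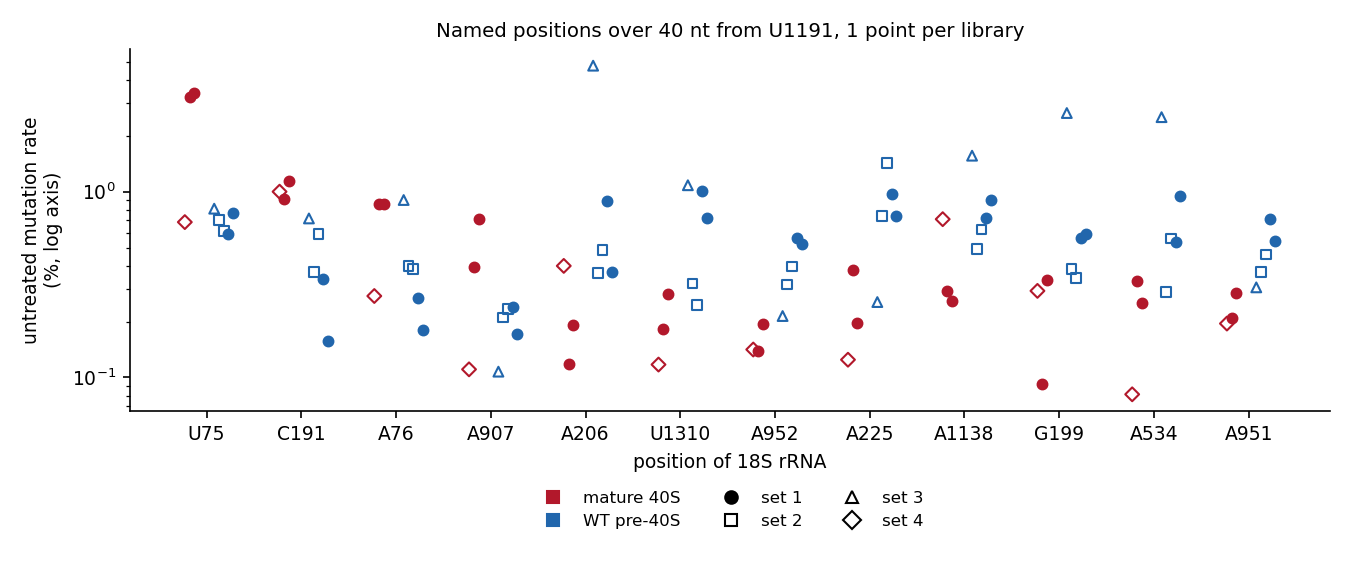
Untreated mutation rate (percent, log axis) at the 12 named positions over 40 nt from U1191, 1 point per library, mature 40S in red at the left of each position and WT pre-40S in blue at the right; filled circles are set 1. At U75 mature replicates 2 and 3 stand at 3.20% and 3.40% with all other libraries at most 0.809%, while at A952 and A951 the 3 mature libraries lie below the 5 WT libraries in these rates as measured.

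The 18 positions that fell more than 40 nt from U1191 were spread over the 5′ domain (12), the shoulder, central domain and platform (4) and the head (2). These regions held 25.5%, 38.8% and 27.1% of the positions tested in set 1. The 18 included 9 A and 4 C, bases that made up 26.2% and 19.5% of the tested positions. The rest were U110, U205, U1310, G53 and G199. In 10 of the 18, as measured, the 3 mature libraries were below the 5 WT libraries without overlap, against 12.1% of the tested positions with a negative change there. Scaled, 5 of the 18 were without overlap (A103, C230, C305, A534 and U1310), against 6.35%. Since the calls were picked on set 1, part of these libraries, an excess over these shares is partly built in. A952 had 0.141%, 0.139% and 0.193% in mature replicates 1 to 3, against 0.214%, 0.316%, 0.395%, 0.562% and 0.525% in WT replicates 1 to 5, from 9 to 45 mutated reads a library. Scaled, mature replicate 1 had 0.246% and WT replicate 1 had 0.171%, so the groups overlapped. Its set 1 log2 change was -1.57 (SE 0.40; adjusted p = 0.00476), and it fell together with its neighbour A951 (-1.22, adjusted p = 0.0323). The adjusted p was 0.153 at A952 and 0.341 at A951 without mature replicate 2, 0.112 and 0.343 without mature replicate 3, and 0.192 at A951 without WT replicate 4.

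From G199 to C230, 6 called positions had mean rates of 0.303%, 0.335% and 0.305% in mature replicates 1 to 3, against 2.26%, 0.497%, 0.760%, 0.904% and 0.702% in WT replicates 1 to 5. In this mean each mature library was below each WT library, as measured and scaled. WT replicate 1 was far above the rest, at depths under 1000 reads. Position by position, only C230 was without overlap when scaled, and U205, A206 and A225 overlapped as measured too. At A206 mature replicate 1 had 0.398%, against 0.364% to 4.75% in WT libraries. Scaled, it was above 4 WT libraries at G199 (0.508%) and above 3 at A206 (0.692%). A225 had 0.125%, 0.376% and 0.197% in mature against 0.254%, 0.735%, 1.43%, 0.974% and 0.740% in WT libraries (log2 change -1.44, SE 0.31; adjusted p = 0.000309). The change was -1.86 at A206 (adjusted p = 0.000102) and -1.35 at G199 (0.0105). These calls depended on single libraries. Without mature replicate 3 the adjusted p at A225 was 0.384. Without mature replicate 2 it was 0.0704 at A206 and 0.650 at G199, and without WT replicate 4 it was 0.0878 at A206. In the same stretch the excluded share was lower in mature 40S at 15 called positions from 204 to 234, at 6.17% to 16.7% in mature and 7.74% to 22% in WT libraries of set 1.

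The remaining named positions that fell were U1310, A1138 and A534. U1310, in the head, had 0.117%, 0.182% and 0.281% in mature replicates 1 to 3 against 1.08%, 0.320%, 0.246%, 1.00% and 0.718% in WT replicates 1 to 5 (log2 change -1.73, SE 0.50; adjusted p = 0.0183). A1138 had a change of -1.43 (adjusted p = 0.00440), with 0.71% in mature replicate 1, which was within the WT range of 0.493% to 1.56%. A534 had a change of -1.25 (adjusted p = 0.00284), and WT replicate 1 stood at 2.51% against 0.289% to 0.941% in the other WT libraries. U1310 was not called without mature replicate 2 (0.279), mature replicate 3 (0.308) or WT replicate 4 (0.170). A1138 was not without mature replicate 2 (0.0745) or 3 (0.445), and A534 not without mature replicate 3 (0.517) or WT replicate 5 (0.153). The test also mattered. DESeq2 did not call A206, G199, A534, A1138, U1182, A1184, C1190, U1206 or A1217 (adjusted p from 0.0522 to 0.467). Limma on log2 rates did not call A206, G199, A534, A951, C1190 or U1206 (adjusted p from 0.0508 to 0.190), and A534 was not called with the spread taken from 9 untreated libraries of set 1 (adjusted p = 0.0802).

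The other pre-40S untreated libraries of set 1, 3 of S15_YRR and 2 of Rio2_Δloop, entered none of these fits of 4 and give a second view of the WT values. At 11 of the 14 positions that rose away from U1191 both mature libraries of set 1 were above all 5 of them, against 10.2% of the tested positions there with a positive change. At 10 of the 18 that fell both were below all 5, against 17.7% of those with a negative change. The mature values here are those of the libraries that made the calls, so only the pre-40S side is new. An excess over the shares of tested positions is thus partly built in. The 5 libraries share with the WT libraries of set 1 whatever makes the set, and no test was run on these counts.

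At the naturally modified positions other than U1191 few untreated rates differed. Of 18 ribose-methylated positions tested in each fit, 0 passed with 8 libraries and 0 in set 1, with a median log2 change of 0.02 and -0.08 against -0.02 and -0.00 over all tested positions. Of the 13 pseudouridines 12 were tested in set 1 and 2 rose, U1181 and U1187, both within 10 nt of U1191; with 8 libraries 11 were tested and 0 passed. U1181 had 0.251%, 2.51% and 2.81% in mature replicates 1 to 3, against 0.230%, 0.792%, 0.539%, 1.54% and 1.61% in WT replicates 1 to 5 (set 1 log2 change 0.86; adjusted p = 0.0401). Of the base-modified sites, C1280 had 1.70%, 3.55% and 3.65% in mature against 2.85%, 1.87%, 2.28%, 2.32% and 3.43% in WT libraries (set 1 log2 change 0.47, adjusted p = 0.485). G1575 had 0.862%, 1.67% and 1.60% in mature against 0.915%, 0.936%, 0.807%, 1.44% and 1.44% in WT libraries (0.29, adjusted p = 0.659). C1773 had 1.83%, 2.20% and 3.37% in mature against 1.42%, 4.29%, 2.32%, 3.08% and 2.37% in WT libraries (0.16, adjusted p = 0.893). At these 3 sites the groups overlapped as measured. Scaled, all 3 mature libraries were above all WT libraries at C1280, at 2.95% to 3.21% in mature against 1.93% to 2.87% in WT libraries, and at G1575, with a lowest mature value of 1.40% against 0.730% to 1.21% in WT libraries. In the fit of 8 libraries the adjusted p was 0.809 at C1280 and 0.799 at G1575. A1781 and A1782 had too few reads to be tested (635 to 1467 and 593 to 1656). A1782 had 5.90%, 8.38% and 6.58% in mature and 2.54%, 6.86%, 6.26%, 7.12% and 6.29% in WT libraries. A1781 had 6.41%, 8.37% and 8.79% in mature and 4.99% to 6.80% in WT replicates 2 to 5, with 54.1% in WT replicate 1.

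The DMS-treated libraries of the same replicates gave a second measurement at G and U, bases that DMS-MaPseq reads little of, since DMS is read mainly at A and C. Of 21 G and U called in the untreated libraries of set 1, 19 could be tested in the DMS libraries of set 1, and the sign was the same at all 19, against 586 of 926 (63.3%) for every G and U tested in both. In the DMS libraries 13 of 929 positions passed (1.40%), with 9 raised and 4 lowered in mature 40S, and 9 of the 13 were also called in the untreated libraries with the same sign, which is 69.2% of the DMS calls and 47.4% of the 19. Without a library scale 39 DMS positions passed, 13 raised and 26 lowered. The count was 24 without WT replicate 4 and 0 without WT replicate 5, mature replicate 2 or mature replicate 3. With 8 libraries edgeR called 0 of 906 positions (0% called; 42 had an unadjusted p under 0.05).

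The stretch at U75 was seen again in the DMS libraries. U75 had 1.31%, 3.93% and 2.76% in mature DMS replicates 1 to 3, against 0.190%, 0.390%, 0.734%, 0.985% and 1.09% in WT DMS replicates 1 to 5 (set 1 log2 change 1.79, SE 0.22; adjusted p = 0.000560). Here all 3 mature libraries were above all WT libraries, as measured and scaled. U74 had 1.14%, 3.97% and 3.03% in mature DMS libraries against 0.188%, 0.483%, 0.587%, 1.67% and 1.81% in WT DMS libraries (1.11, adjusted p = 0.00873). U278 had 1.64%, 2.80% and 2.69% in mature DMS libraries against 0.139%, 0.260%, 0.339%, 1.51% and 1.5% in WT DMS libraries (0.98, adjusted p = 0.00873), with no overlap. G199 was lower, with 0.146%, 0.242% and 0.187% in mature DMS libraries against 1.25%, 0.271%, 0.782%, 0.972% and 0.630% in WT DMS libraries (-1.72, adjusted p = 0.00873). Beside U1191, U1187 rose (2.16, adjusted p = 0.000560) and U1206 fell (-1.16, adjusted p = 0.0198), and at both positions the groups overlapped as measured. U1191 itself was at 83.1%, 83.8% and 82.5% in mature DMS libraries against 1.89%, 2.89%, 2.26%, 1.87% and 3.63% in WT DMS libraries, and was not tested because mature DMS replicate 3 had 912 reads there.

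Averaged over all positions of a base, no difference between the particles passed the test. Over A the mean rate was 0.403%, 0.529% and 0.550% in mature replicates 1 to 3, against 1.19%, 0.514%, 0.614%, 0.600% and 0.610% in WT replicates 1 to 5, with positions within 10 nt of U1191 left out. The difference was -0.211 percentage points (exact two-sided permutation test, p = 0.107; adjusted over the 4 bases p = 0.429), and -0.0902 without WT replicate 1 (exact p = 0.171). Over U the mean rate was 0.319%, 1.32% and 1.35% in mature against 0.936%, 0.470%, 0.587%, 1.37% and 1.42% in WT libraries (difference 0.0372 percentage points, exact p = 1.00). U separated the sets, with 1.32% to 1.42% in the 4 libraries of set 1 of either particle. The differences were -0.108 percentage points over C and -0.0829 over G (exact p = 0.321 and 0.5). Within set 1 they were -0.0649, -0.0351, 0.000813 and -0.0650 over A, C, G and U.

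**Figure D4:**
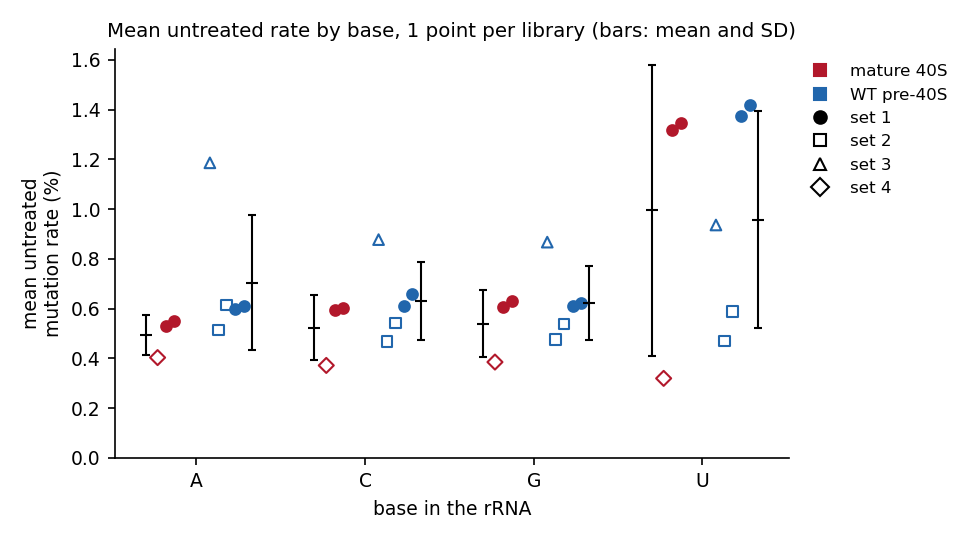
Mean untreated mutation rate in percent over the A, C, G and U of 18S, 1 point per library, mature 40S in red at the left and WT pre-40S in blue at the right of each base, with the mean and SD of each group as bars and a marker shape for each set. The 4 filled circles of set 1 lie together at each base, and at U they stand at 1.32% to 1.42%, above the other libraries.

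Read depth by region of 18S gave no difference past the threshold either. Relative to the 18S mean, the log2 depth of the head was -0.18, -0.30 and -0.30 in mature replicates 1 to 3, against 0.13, -0.04, 0.12, 0.04 and -0.29 in WT replicates 1 to 5. The difference of -0.25 had an exact two-sided permutation p of 0.0714 (adjusted over 4 regions p = 0.238), where 0.0357 is the smallest p possible. WT replicate 5 was the WT library close to the mature values, and within set 1 the difference was -0.18. The differences were 0.13 for the 5′ domain, 0.08 for the shoulder, central domain and platform and -0.03 for the 3′ minor domain (exact p = 0.143, 0.179 and 0.821).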

How the data were processed

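The comparison used the untreated libraries alone, 3 from mature 40S and 5 from WT pre-40S; their DMS libraries served as a second measurement at G and U. The members and lists were chosen with earlier results of these data known. Per the file headers, the deposited profiles give mutation counts, read depth counts and effective depth counts per position, which were used as deposited; the aligner, the counter and the genome build are not given in the sources used here. Rates and excluded shares were tested with edgeR 4.0.16 (quasi-likelihood, robust; R 4.3.3), with the logarithm of depth times a library scale (median of ratios) as offset. The depth was the effective depth for rates and the read depth for excluded shares. Positions tested had a depth of at least 1000 reads in the libraries of the fit and a mean rate or share of at least 0.1%. Depth steps were tested with limma 3.58.1 (robust), and single values with exact permutation tests (scipy 1.17.1). P-values were adjusted over all positions tested (Benjamini-Hochberg, 0.05). The scripts were tested on simulated data. Named positions were every call with 8 libraries; in set 1 the 12 largest changes per direction among calls without overlap and with a mean rate of at least 0.5% in 1 group; 5 per direction for excluded shares and steps; and the fixed modified sites. Sets were found by average linkage of untreated log2 rates (plus a pseudocount of 0.0005 as a fraction) over the 15 untreated libraries, cut at r = 0.75. Wilson intervals cover counting error only, since the reads carry no stated molecular identifiers. Alternatives were the library scale, filters, DESeq2 1.42.0, limma, set and replicate blocks, other windows, and each library left out.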

Additional observations from a re-analysis of the deposited data

Results flagged for a closer look

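In a group of 5 libraries a value was singled out when its gap to the nearest other made up most of the range (Dixon's critical value), a rule that chance meets in about 1 of 20 groups. Of 42 WT pre-40S groups checked 8 were singled out, and in all 8 the library was WT replicate 1; groups of 3 were not checked. It had the highest WT rate at A1781 (54.1%), A206 (4.75%), A1183 (2.66%), G199 (2.64%) and A1227 (1.36%), the highest mean rate over A (1.19%) and the lowest rate at A1782 (2.54%). At G904 its depth step was the highest of the WT libraries, at -0.0144. Its read depth over the internal transcribed spacer, 0.915 of that over 18S, was also the highest of the 8 libraries. It entered no fit within set 1, and without it U1191 was still the 1 call in the 8 libraries.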

How the results depend on the processing

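U1191 was called in each of the 15 other fits of the 8 libraries that tested it, with log2 changes of 4.75 to 5.26. With 8 libraries the count of rates past the threshold was 1 in all fits that left out 1 library, 0 with a depth of at least 2000, 7 by DESeq2, 19 with the set as a random block and 17 with a replicate block. Within set 1 it was 54, 14 by DESeq2, 31 by limma and 13 to 124 without 1 library. Of the checks at the 24 named positions of set 1, 46 of 251 lost the call and 0 reversed. Without a library scale the median log2 change moved to -0.11 in set 1 and -0.22 with 8 libraries (excluded share -0.51), and the calls of set 1 became 27 higher and 49 lower. For excluded shares of set 1 they became 15 higher and 54 lower, against 32 and 47, and 0 to 218 were called without 1 library. Steps past the threshold with 8 libraries numbered 15 with a window of 1 position, 23 on effective depth, 0 with a replicate block and 3 to 75 without 1 library; within set 1 the counts were 24, 21 and, without 1 library, 0 to 304. G and U in DMS libraries gave 39 calls in set 1 without a library scale (13 higher, 26 lower), 0 to 24 without 1 library, and with 8 libraries 7 with a replicate block and 0 to 1 without 1 library. Dividing rates by the library scale, an alternative chosen after seeing the data, changed how many called positions over 40 nt from U1191 were without overlap in 8 libraries to 7 from 2 among those higher and to 5 from 10 among those lower. The cause was not tested for any of these. The deviations of same-numbered replicates from the group means correlated at 0.55, -0.33 and -0.23. Mature replicate 1 correlated best with WT replicate 1, while mature replicates 2 and 3 correlated best with WT replicate 5. No paired analysis was possible within set 1 because its mature and WT libraries share no number. Tests of single values with 2 libraries in a group cannot pass the threshold.

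Low rates rest on few reads, such as the 9 to 17 mutated reads a mature library at A952. The effective depth of 122 positions, mostly at 190 to 230 and the 3′ end, was under 1000 reads in a library. Their rates were not analysed with 8 libraries.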
